A study of Mus musculus with 19 samples.

Results

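The 36 genes described here drive or mark the cell division cycle: they push a resting cell through G1, copy its DNA and carry it through mitosis. They come from a written list of cell cycle genes, whose rule uses no measured value but which was drawn up with earlier results of these data known. Of these, 35 were measured among 18193 genes with a probe set of their own, and Ccnb1 was not analysed here. Each gene is read from its brightest probe set, and its level is a log2 value on the scale the authors deposited. The list held 6 genes of G1 entry, 5 of the G1/S switch, 3 brakes, 10 of DNA replication and 12 of G2 and mitosis.

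The samples were livers of 19 male C57BL/6 mice aged 10 to 12 weeks, taken 2 h after removal of 85% of the liver, with 1 array per mouse. There were 6 Ager-null mice, 4 Myd88-null mice, 4 mice null for both Ager and Myd88 (double-null) and 5 WT mice. Ager encodes the receptor RAGE and Myd88 the adaptor of most Toll-like receptors. The labels give the null genotypes without naming the alleles, and name no cell type in which a gene was removed. All 4 groups share the resection, so a level here is a level after resection, and no induction over resting liver can be read from it.

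Hepatocytes of the adult liver rest outside the cycle, and resection calls them back in. In the priming phase immediate early genes such as Myc respond first, the D-type cyclins with Cdk4 and Cdk6 then carry the cell through G1, and release of E2F factors from Rb switches on the genes of DNA replication. The mitotic genes, many of them repressed in resting cells through a promoter element called the CHR, follow only once DNA has been copied.

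The arrays were read as liver before the members were compared. All 7 measured hepatocyte markers were over log2 4, with a median of 14.8, while 1 of 9 kidney and glomerulus markers had a mean over 4. That check was made because the extraction text of the labels speaks of glomeruli. Myd88 averaged 3.49 ± 0.34 in Myd88-null livers and 3.45 ± 0.58 in double-null livers (SD, n = 4 each), against 5.91 ± 0.38 in Ager-null livers (n = 6) and 5.55 ± 0.29 in WT livers (n = 5). The brightest Ager probe set averaged under log2 4 in all 4 groups, which checks nothing about the Ager labels. One array stood apart: Myd88-null 4 had a median correlation of 0.965 with the others, against at least 0.979 for every other array. Its summed signal of 10 Kupffer cell and macrophage genes was 10.6 (log2), against at least 12.1 elsewhere. Marker sums varied within other groups too: in Ager-null livers that of neutrophils and monocytes ran from 9.22 to 12.2 and that of endothelium from 10.3 to 11.7. Nothing in the labels says that mice of a group came from separate litters or days, so p-values measure the spread between these samples.

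The share of members over log2 4 differed between the roles. All 6 genes of G1 entry and all 3 brakes had means over log2 4, as did 2 of 5 genes of the G1/S switch and 6 of 10 replication genes, but 0 of the 11 measured genes of G2 and mitosis did. This split holds for the listed members only. Among genes outside the list, 2 of 8 measured CDK inhibitors and pocket proteins had means over 4. So did 6 of 28 mitotic genes and 23 of 38 replication genes. In all 17 of 35 members (48.6%) had a mean over 4, against 44.6% of all 18193 genes. On single arrays 16 members were over 4 on every array and 11 on none. Members just inside the limit were Mcm5 at 4.46 and Cdk2 at 4.64, and those just outside were Ccne1 at 3.94 and Mcm4 at 3.78. When the mean of a gene's probe sets replaced the brightest, 12 members were over 4.

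Within G1 entry, Myc, the transcription factor of cell growth, had the highest mean at 8.78. The cyclins Ccnd1, Ccnd3 and Ccnd2, which activate the G1 kinases, had means of 7.79, 6.88 and 5.85, and the kinases themselves, Cdk4 and Cdk6, had 7.48 and 6.64. Levels of different genes are read from different probes, so these numbers place each gene on the array's scale and do not rank the transcripts. The brakes on the list were present beside them. Cdkn1b, which encodes the CDK inhibitor p27, had a mean of 8.06, Rb1, the pocket protein that holds E2F factors, 6.77 and Cdkn2c, the Cdk4 and Cdk6 inhibitor p18, 4.90.

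The G1/S switch lay around the limit. E2f3, an E2F activator, had a mean of 4.67 and Cdk2, the partner of cyclin E, 4.64. The cyclin E genes Ccne1 and Ccne2 had 3.94 and 3.38 and E2f1, another E2F activator, 3.49. Ccne1 was over 4 on 5 arrays, Ccne2 on 3 and E2f1 on 1. Both cyclin E genes thus lay under the limit on average.

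DNA replication was the most uneven group. Pcna, the sliding clamp of the replicative polymerases that also serves repair, had a mean of 10.81, the highest of all members, and ranged only from 10.47 to 11.10 over the 19 arrays. Mcm7, a subunit of the replicative helicase, had 7.40 and Rrm2, the regulated subunit of ribonucleotide reductase, 7.38. Rrm1, the partner of Rrm2, had 4.72, and the helicase subunits Mcm6 and Mcm5 had 4.75 and 4.46. The other helicase subunits, Mcm4, Mcm2 and Mcm3, lay lower at 3.78, 3.65 and 3.48, and Cdc6, which loads the helicase on origins, had 2.51 and was over 4 on no array.

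All measured genes of G2 and mitosis had means between 2.31 and 3.58. The highest were Cdc20, an activator of the anaphase-promoting complex, at 3.58 and Cdk1, the mitotic kinase, at 3.54. Mki67, the proliferation marker Ki-67, had 3.06, Top2a, the topoisomerase that untangles sister DNA, 2.94 and Foxm1, the transcription factor of the mitotic programme, 2.88. Ccna2 at 2.60, Aurkb at 2.58, Ccnb2 at 2.53, Aurka at 2.47, Plk1 at 2.35 and Bub1 at 2.31, which are cyclins and kinases of mitosis, made up the rest. Single arrays crossed 4 for Cdk1 on 3 arrays and for Cdc20 on 1.

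**Figure D1:**
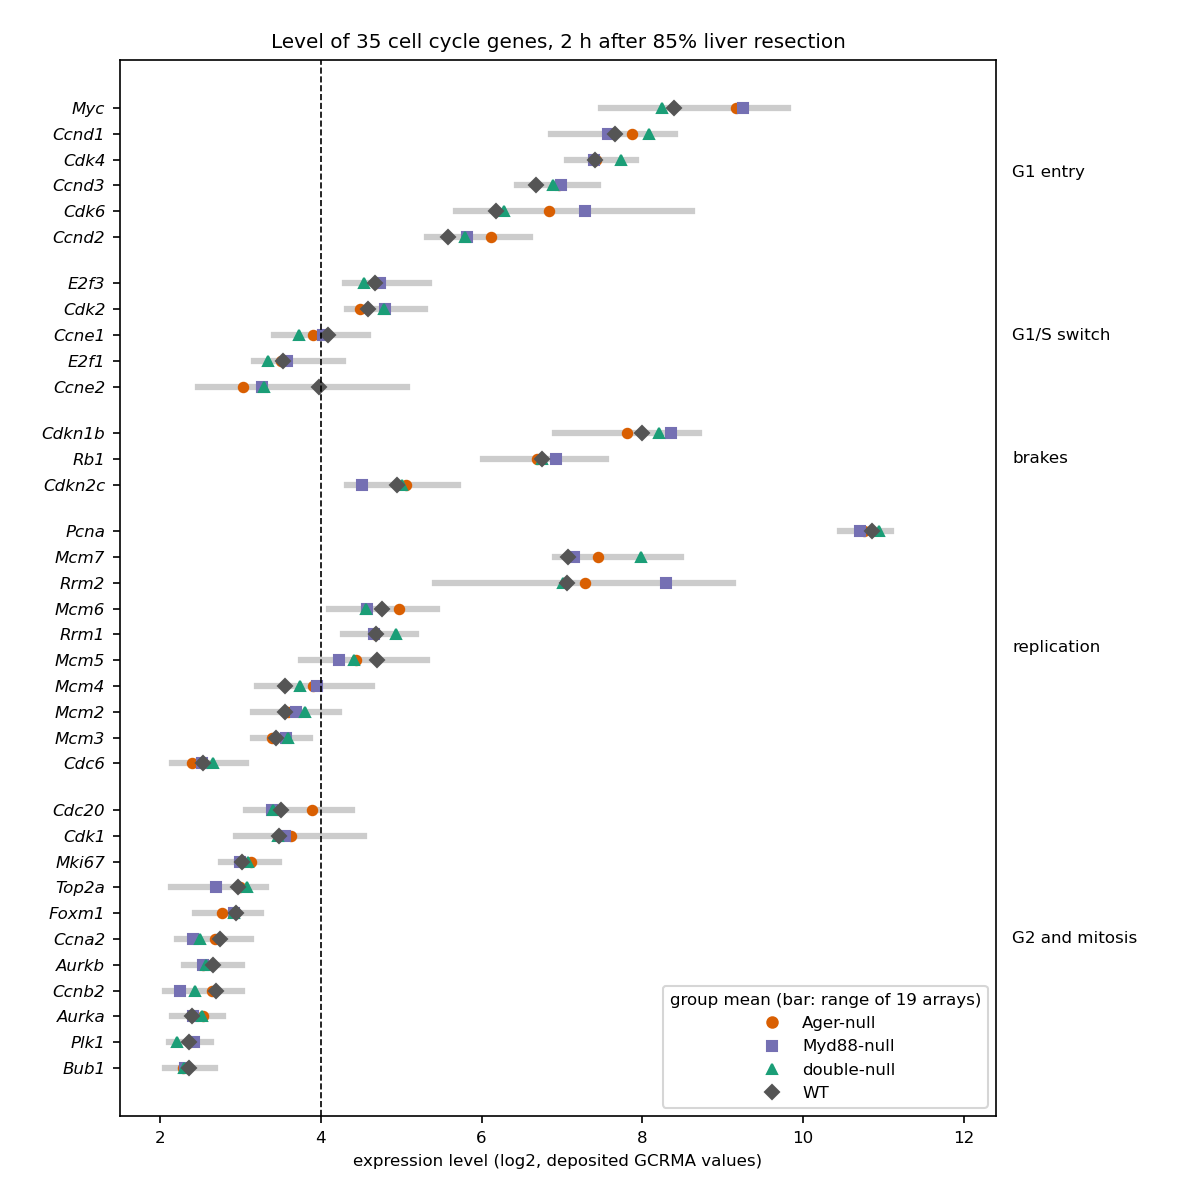
Level of each measured member (log2, horizontal axis), ordered by role, with a symbol for the mean of Ager-null, Myd88-null, double-null and WT livers and a grey bar for the range of 19 arrays. The dashed line marks log2 4: G1 entry genes and brakes lie right of it, the mitotic genes left of it, and the 4 group means of a gene mostly lie within 1 unit of each other.

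The promoters of the members were searched for letters known from cell cycle promoters, because the level split by role. RefSeq windows of mouse GRCm38.p6, from 250 bases before to 50 after a gene's start, were found for 26 members. No window was used for Myc, Ccnd1, Ccnd2, Ccne2, Ccna2, Rb1, Foxm1, Mcm4 and Aurkb. On either strand, the E2F letters TTCCCGC or TTGGCGC stood in 11 of 26, against 7.79% of 27025 genes with a window, in 7 of 13 members over log2 4 and 4 of 13 at or under it. The CHR letters TTTGAA stood in 9 of 26, against 20.2% of all: in 1 of 13 members over 4 (E2f3) and 8 of 13 at or under it (Aurka, Cdc20, Mcm2, Plk1, Mki67, Ccnb2, Cdk1 and Top2a). The E-box CACGTG, the letters that Myc and its partner Max recognise, stood in 4 of 26, against 8.09% of all: in 4 of 13 members over 4 (Cdkn2c, Cdk6, Cdk4 and E2f3) and 0 of 13 at or under it. CCAAT letters stood in 21 of 26, against 41.1% of all. These matches are a description of letters in a window, and no binding was measured. A TTGGCGC match that is preceded by A shares bases with CCAAT on the other strand.

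The upstream stretches of 4 members, 250 bases each, show the contrast, with E2F, CHR and E-box letters in capitals and CCAAT letters left unmarked. Cdk1, chr10:69352913-69353162 (minus strand), and Ccnb2, chr9:70421555-70421804 (minus strand), are mitotic genes under log2 4 with CHR letters. Mcm6, chr1:128359706-128359955 (minus strand), is a replication gene over 4 with E2F letters, and Cdk4, chr10:127063285-127063534 (plus strand), is a G1 kinase over 4 with E-boxes.
Cdk1: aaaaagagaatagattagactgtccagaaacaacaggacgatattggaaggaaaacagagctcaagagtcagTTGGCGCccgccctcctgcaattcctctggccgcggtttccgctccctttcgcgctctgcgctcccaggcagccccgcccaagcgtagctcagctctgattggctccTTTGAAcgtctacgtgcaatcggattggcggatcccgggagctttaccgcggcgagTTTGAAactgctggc
Ccnb2: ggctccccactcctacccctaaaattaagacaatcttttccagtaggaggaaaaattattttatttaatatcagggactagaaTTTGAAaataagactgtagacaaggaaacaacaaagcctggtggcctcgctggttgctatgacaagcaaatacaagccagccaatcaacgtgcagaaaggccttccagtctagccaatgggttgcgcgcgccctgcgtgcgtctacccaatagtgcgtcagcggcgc
Mcm6: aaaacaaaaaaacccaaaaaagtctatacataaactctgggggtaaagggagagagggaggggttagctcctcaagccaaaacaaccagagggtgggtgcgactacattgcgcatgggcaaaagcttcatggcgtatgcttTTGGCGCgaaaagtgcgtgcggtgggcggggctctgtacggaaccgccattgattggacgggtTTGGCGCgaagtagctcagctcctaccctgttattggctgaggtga
Cdk4: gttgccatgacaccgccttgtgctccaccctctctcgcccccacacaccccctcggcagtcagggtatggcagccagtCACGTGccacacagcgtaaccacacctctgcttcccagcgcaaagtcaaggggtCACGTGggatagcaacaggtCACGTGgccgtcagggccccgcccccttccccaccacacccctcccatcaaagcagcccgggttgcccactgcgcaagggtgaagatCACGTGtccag
Cdk1 carries the CHR letters in 2 places and the E2F letters in 1, Ccnb2 the CHR letters in 1, Mcm6 the E2F letters in 2 and Cdk4 the E-box in 4.

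The genotypes were then compared over the 18 members that passed the filter of log2 4 on at least 4 arrays: Myc, Ccnd1, Ccnd2, Ccnd3, Cdk4, Cdk6, Ccne1, Cdk2, E2f3, Cdkn1b, Rb1, Cdkn2c, Pcna, Mcm7, Mcm6, Mcm5, Rrm1 and Rrm2. No member passed an adjusted p of 0.05 in any of the 7 comparisons, which were fitted with limma over all 8515 tested genes. In Ager-null against WT livers 0 of 18 members were called, where 1.26% of all tested genes were. The same count was 0 of 18 in Myd88-null against WT livers (0.399% of all genes), in double-null against WT livers (0.317%), in double-null against Ager-null livers (2.44%), in double-null against Myd88-null livers (0.153%), in Ager-null against Myd88-null livers (1.26%) and in the interaction (2.41%). At such low background shares a count of 0 among 18 says nothing particular about the members. The interaction asks whether loss of Myd88 acts differently in livers that also lack Ager: it is double-null minus Ager-null, less Myd88-null minus WT.

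Counts at an unadjusted p under 0.05 lay near the background as well. Ager-null against WT livers gave 4 of 18 members (Myc, Ccnd2, Ccnd3 and Cdk6), where 21.6% of all genes had such a p. Myd88-null against WT livers gave 3 (Myc, Cdk6 and Rrm2; 19.6% of all) and double-null against WT livers 2 (Cdk4 and Mcm7; 8.57%). Double-null livers gave 3 against Ager-null livers (Myc, Cdk4 and Mcm7; 22.7%) and 5 against Myd88-null livers (Myc, Cdk4, Cdk6, Mcm7 and Rrm2; 16.1%). Ager-null against Myd88-null livers gave 4 (Cdk2, Cdkn1b, Cdkn2c and Rrm2; 15.9%) and the interaction 4 (Myc, Cdk6, Pcna and Rrm2; 27.2%). Members whose groups did not overlap numbered 0 of 18 in Ager-null against WT livers, where 3.7% of all genes had this property, and 0 in Ager-null against Myd88-null livers (3.92%). There were 2 in Myd88-null against WT livers (Cdk2 and Rrm2; 4.52%), 1 in double-null against WT livers (Mcm7; 3.81%), 2 in double-null against Ager-null livers (Cdk6 and Cdkn1b; 8.39%) and 2 in double-null against Myd88-null livers (Mcm7 and Rrm2; 5.91%). Cdk2 read 4.73 to 4.95 in Myd88-null livers and 4.36 to 4.65 in WT livers, a difference of 0.22 with a 95% interval of -0.09 to 0.53. The 3 comparisons with WT share the WT livers, so they are not independent of each other.

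Precision differed among the members. The 95% interval of the log2 difference lay wholly within 1 unit of zero for 15 of 18 members in Ager-null against WT livers, 14 in Myd88-null against WT livers and 17 in double-null against WT livers. For those members a change of 1 unit or more lay outside the interval of the brightest probe set. The intervals do not cover the other probe sets of a gene. Differences of dim members, such as Ccne1 with a mean of 3.94, may be compressed by the background correction. These counts were not set against a share of all tested genes. The members outside this band were Myc, Cdk6 and Rrm2 in Ager-null livers, Myc, Cdk6, Mcm5 and Rrm2 in Myd88-null livers and Mcm7 in double-null livers. Pcna was measured most closely: its differences from WT were -0.10 (95% interval -0.30 to 0.10) in Ager-null livers, -0.14 (-0.37 to 0.08) in Myd88-null livers and 0.08 (-0.14 to 0.30) in double-null livers. Rrm2 was measured least closely, with a residual SD of 0.72 against 0.14 for Pcna, and the median residual SD was 0.33 over the tested members against 0.27 over all tested genes.

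**Figure D2:**
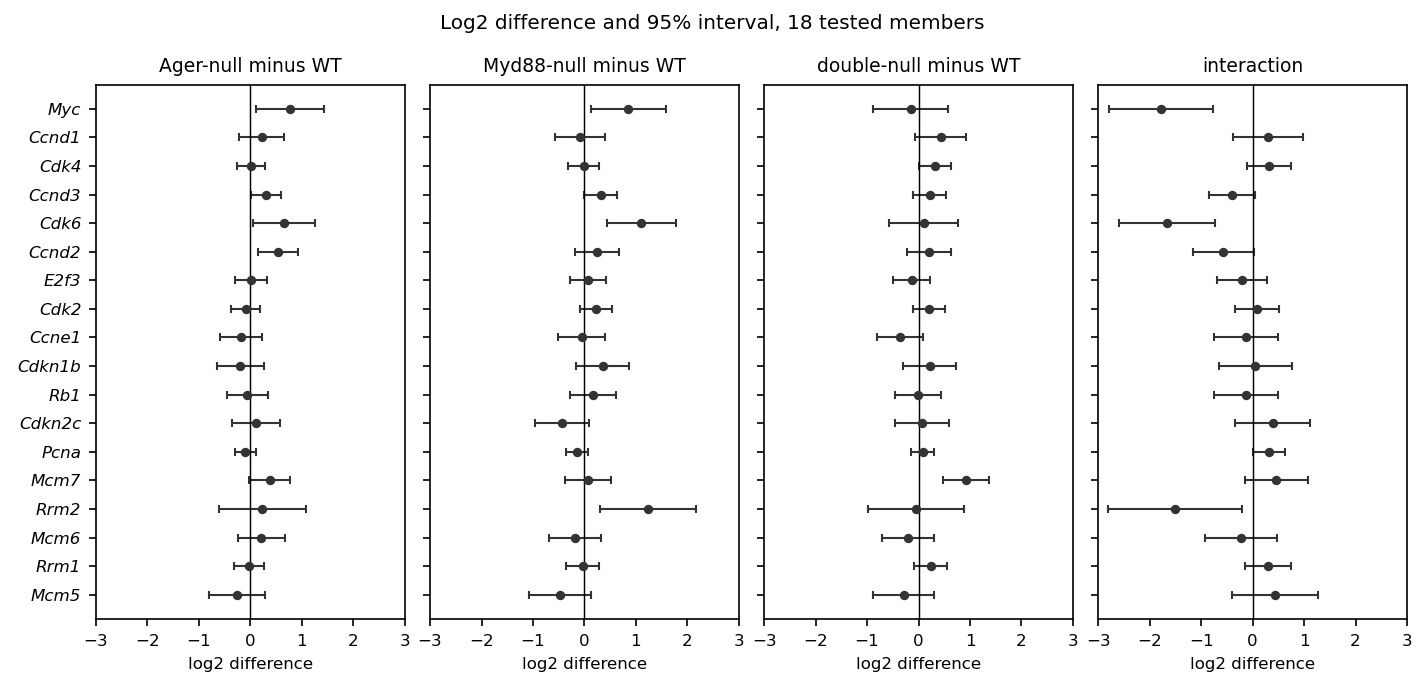
Log2 difference (points) with 95% interval (bars) for the 18 tested members in Ager-null minus WT, Myd88-null minus WT, double-null minus WT, and the interaction. Most intervals cross zero: Myc and Cdk6 lie right of it in both single-null panels and left of it in the interaction, and Mcm7 stands out in the double-null panel, while 0 members passed the adjusted threshold.

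Myc was higher on average in each single-null group than in the double-null and WT livers, without passing the test. Its lowest, median and highest levels were 8.52, 9.26 and 9.77 in the 6 Ager-null livers. Myd88-null livers read 8.45, 9.81, 9.79 and 8.94, double-null livers 8.72, 8.64, 7.66 and 7.94, and WT livers 8.72, 8.82, 8.21, 8.74 and 7.48. The groups overlap: the lowest Ager-null and Myd88-null livers lie within the range of double-null and WT livers, and the low end of WT is 1 liver, WT 5. The difference from WT was 0.77 ± 0.31 (SE, adjusted p = 0.167) in Ager-null livers, 0.85 ± 0.35 (adjusted p = 0.196) in Myd88-null livers and -0.15 ± 0.35 (adjusted p = 0.941) in double-null livers. The interaction was -1.77 ± 0.48 with an adjusted p of 0.0539, just short of the threshold. Without WT 5 the Ager-null difference was 0.54. Without Myd88-null 1, the lowest Myc liver of its group, the Myd88-null difference was 1.12 (adjusted p = 0.0496) and the interaction -2.04 (adjusted p = 0.0100), which the test would call. That fit called 986 of 8493 genes in Myd88-null against WT livers and 1750 in the interaction, so these calls are not particular to Myc. Leaving out Ager-null 1 also put the interaction past the threshold, at -1.88 (adjusted p = 0.0457), where 322 of 8500 genes were called. These arrays are bulk liver, in which more cells with Myc RNA and more Myc RNA per cell cannot be told apart.

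Cdk6, which like Cdk4 is a kinase activated by D cyclins, had the smallest adjusted p of any member, again in the interaction. Ager-null livers lay close together, with 6.67, 6.83 and 6.98 as lowest, median and highest. Levels were 6.30, 6.97, 7.26 and 8.61 in Myd88-null livers, 6.38, 6.36, 6.15 and 6.23 in double-null livers, and 5.70, 5.68, 6.89, 6.38 and 6.26 in WT livers. Every Ager-null liver lay above every double-null liver, while WT 3 lay among the Ager-null livers and Myd88-null livers spread across both ranges. The difference from WT was 1.10 ± 0.32 (adjusted p = 0.0968) in Myd88-null livers, 0.65 ± 0.29 (adjusted p = 0.200) in Ager-null livers and the interaction was -1.66 ± 0.44 (adjusted p = 0.0527). The 8.61 belongs to Myd88-null 4, the array that stands apart. Without it the Myd88-null difference was 0.66 and the interaction -1.21, and its part in the result was not tested. Without Myd88-null 1 instead, the Myd88-null difference was 1.43 (adjusted p = 0.00949), the interaction -1.99 (adjusted p = 0.00567) and double-null minus Myd88-null -1.33 (adjusted p = 0.0293). Of 8493 genes that fit called 986, 1750 and 445 in the same order, so these calls are not particular to Cdk6. Without WT 3 the interaction was -1.83 (adjusted p = 0.0350), where 472 of 8497 genes were called. A second Cdk6 probe set gave 0.85 in Myd88-null livers and -1.70 for the interaction, and the remaining one had a mean of 2.27.

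Ccnd2, a cyclin D, had the smallest adjusted p of the members in Ager-null against WT livers. Its lowest, median and highest levels were 5.76, 6.09 and 6.61 in Ager-null livers. They were 5.56, 5.70, 6.37 and 5.66 in Myd88-null livers, 6.28, 5.43, 5.52 and 5.94 in double-null livers, and 5.32, 5.74, 5.91, 5.57 and 5.37 in WT livers. Ager-null livers lay towards the top of the range, and the groups overlap. The Ager-null difference from WT was 0.54 ± 0.18 (adjusted p = 0.114). The gene has 7 probe sets, and over the other 6 that difference ran between -0.24 and 0.46.

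In Ager-null against WT livers the other D cyclins and Cdk4 differed less than Ccnd2 on their brightest probe sets. Ccnd3 differed from WT by 0.30 (adjusted p = 0.221) in Ager-null, 0.32 (adjusted p = 0.256) in Myd88-null and 0.22 (adjusted p = 0.742) in double-null livers. Ccnd1, the cyclin D most tied to liver regeneration, averaged 7.87 ± 0.17 in Ager-null, 7.57 ± 0.42 in Myd88-null, 8.08 ± 0.30 in double-null and 7.65 ± 0.52 in WT livers (SD, n = 6, 4, 4 and 5). Its differences from WT were 0.22, -0.08 and 0.43 in the same order of null groups, and the intervals of all 3 cross zero. The other Ccnd1 probe sets gave larger values of 0.59 and 0.64 for double-null minus WT. Cdk4 levels were 7.47, 7.66, 7.86 and 7.92 in double-null livers and 7.63, 7.49, 7.38 and 7.10 in Myd88-null livers. In Ager-null livers the lowest, median and highest were 7.07, 7.42 and 7.77, and WT livers read 7.49, 7.49, 7.20, 7.58 and 7.30. The double-null livers hold the highest Cdk4 values, but the lowest of them lies within the other groups. Double-null minus WT was 0.32 ± 0.15 for Cdk4, with an adjusted p of 0.569, and its other probe sets gave 0.27 and 0.62.

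Mcm7 had the largest difference of any tested member between double-null and WT livers. Its levels were 8.31, 7.77, 8.48 and 7.40 in double-null livers. In Ager-null livers the lowest, median and highest were 7.04, 7.42 and 8.10, Myd88-null livers read 7.23, 7.12, 6.91 and 7.33, and WT livers 7.14, 6.96, 6.97, 6.94 and 7.34. Every double-null liver lay above every WT liver and above every Myd88-null liver. The Ager-null livers overlap all other groups. Double-null minus WT was 0.92 ± 0.21 (adjusted p = 0.0993), double-null minus Myd88-null 0.84 ± 0.22 (adjusted p = 0.168) and double-null minus Ager-null 0.54 ± 0.20 (adjusted p = 0.138). The sample descriptions carry an S number whose meaning is not stated, and the double-null minus WT value was 0.99 among arrays numbered S 1 to 6 and 0.99 among S 7 to 12. Without double-null 4 the double-null minus WT value was 1.11 (adjusted p = 0.0199), where 29 of 8490 genes were called. Without Ager-null 5 the same 0.92 had an adjusted p of 0.0378, where 34 of 8493 genes were called. Probe sets of Mcm7 differ: the other 3 gave 0.51, 0.08 and 0.29 for double-null minus WT. With probe sets ending in x_at or s_at left out, double-null minus Ager-null was 0.072 (adjusted p = 0.807). Blocking on S range gave 0.84 for it (adjusted p = 0.244). Of the other helicase subunits, the tested Mcm6 and Mcm5 gave -0.20 and -0.29, with intervals across zero, and Mcm2, Mcm4 and Mcm3, which did not pass the filter, gave 0.25, 0.18 and 0.14.

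Rrm2, which supplies the deoxynucleotides for DNA synthesis, had its highest mean in Myd88-null livers. These read 7.91, 8.37, 7.77 and 9.13. The lowest, median and highest Ager-null livers read 5.42, 7.59 and 8.44, double-null livers 7.60, 6.99, 6.85 and 6.60, and WT livers 7.31, 7.20, 7.09, 7.40 and 6.30. All 4 Myd88-null livers lay above all double-null and all WT livers, while Ager-null livers overlap all other groups. Myd88-null minus WT was 1.23 ± 0.45 (adjusted p = 0.155), double-null minus Myd88-null -1.28 ± 0.47 (adjusted p = 0.244) and the interaction -1.51 ± 0.62 (adjusted p = 0.135). The 9.13 again belongs to Myd88-null 4, and without that array Myd88-null minus WT was 0.96 and its part in the result was not tested. Ager-null 4 read 5.42, and without it the interaction was -1.89 (adjusted p = 0.0429), where 159 of 8504 genes were called. Rrm2 has 3 probe sets, of which a second gave 1.13 for Myd88-null minus WT. With the mean of the 3, Ager-null minus Myd88-null was -0.58 in place of -1.01. Rrm1, the partner subunit, gave -0.03 for Myd88-null minus WT, with an interval of -0.35 to 0.29.

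Cdkn1b, the p27 brake, had its lowest mean in Ager-null livers on its brightest probe set. There the lowest, median and highest were 7.47, 7.88 and 7.98. Myd88-null livers read 8.71, 8.29, 7.96 and 8.44, double-null livers 8.27, 8.25, 8.30 and 8.03, and WT livers 6.92, 8.44, 8.00, 8.07 and 8.56. All Ager-null livers lay under all double-null livers, and WT 1 was the lowest liver of all. Ager-null minus Myd88-null was -0.55 ± 0.23 with an adjusted p of 0.261. With the mean of the Cdkn1b probe sets it was -0.13 (adjusted p = 0.692), so the size of this difference depends on the probe set. Rb1 differed from WT by -0.06, 0.17 and -0.01 in Ager-null, Myd88-null and double-null livers, and Cdkn2c by 0.11, -0.44 and 0.06. The intervals of all 6 differences cross zero.

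**Figure D3:**
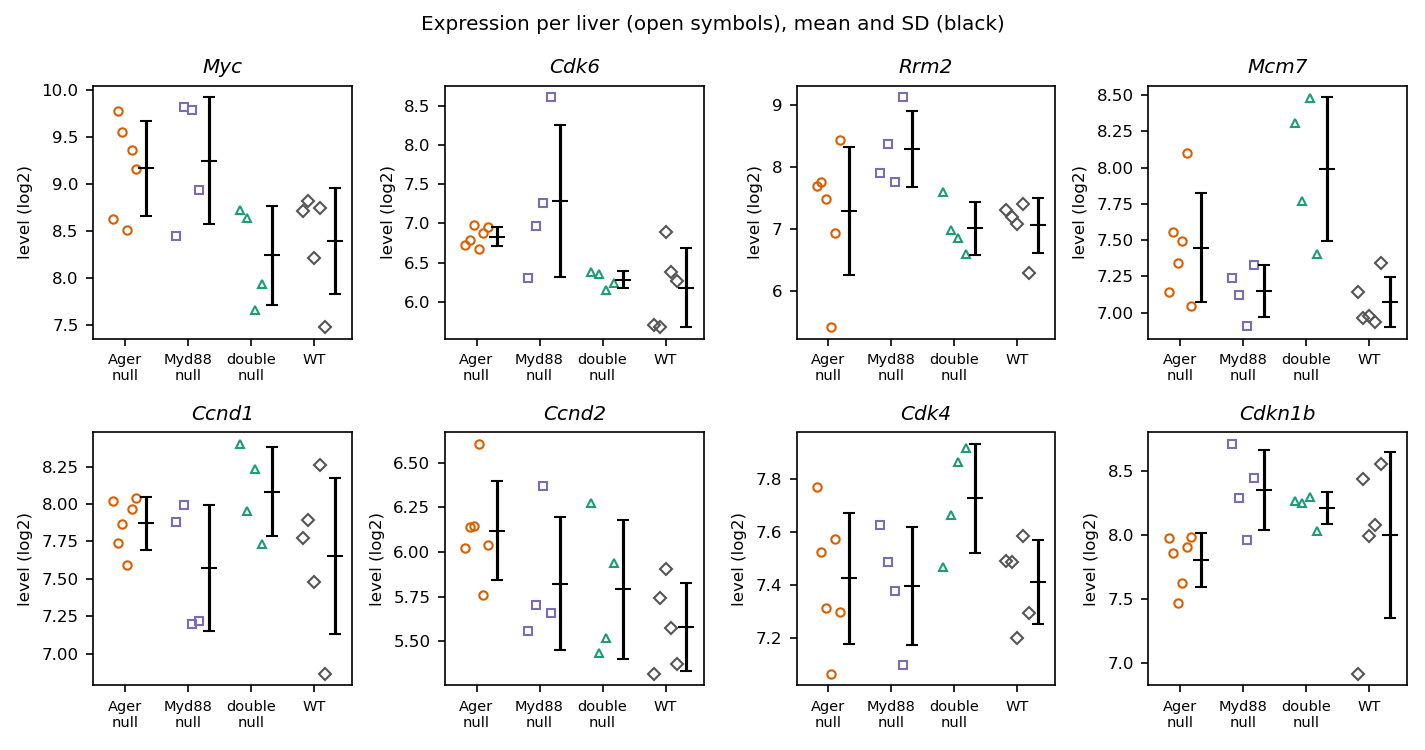
Level (log2, vertical axis) of 8 members in each liver, with open symbols for single livers and black bars for the group mean and SD, for Ager-null, Myd88-null, double-null and WT livers from left to right. In Myc and Cdk6 the single-null groups sit above the double-null and WT groups with overlap. In Mcm7 the double-null livers have the highest mean, in Rrm2 the Myd88-null livers do, and both overlap the Ager-null livers.

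All 6 Ager-null arrays have S numbers of 13 to 20, with WT 5 and Myd88-null 4 as the only other arrays there. Against WT 5 alone the Ager-null livers differed by 1.68 for Myc and 0.58 for Cdk6. With the S range as a block the Ager-null difference from WT was -0.042 (adjusted p = 0.974) for Cdk6, so its direction in Ager-null livers is not settled. In that fit only WT 5 and Myd88-null 4 link the Ager-null arrays to the other groups. Myd88-null 4, the array that stands apart, read 8.61 for Cdk6, and its part in this value was not tested. With that block Myd88-null minus WT was 1.12 for Cdk6 (adjusted p = 0.0497), while its interaction was -0.81 (adjusted p = 0.473) in place of -1.66. Over all genes the block left 0 of 8515 called in the interaction, against 205 without it. For Myc the block gave 1.38 (adjusted p = 0.134) for Ager-null minus WT and -1.69 (adjusted p = 0.113) for double-null minus Ager-null. Double-null minus Ager-null was 0.033 for Cdk4, and Ager-null minus Myd88-null -0.86 for Cdkn1b.

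The 17 measured members that did not pass the filter were fitted only as a description. The largest difference between groups was that of Ccne2, a cyclin E, at -0.94 for Ager-null minus WT. Against WT it was -0.70 in Myd88-null and -0.69 in double-null livers. Levels of Ccne2 were 2.66, 2.79 and 3.96 (lowest, median and highest) in Ager-null livers, 3.34, 2.47, 3.19 and 4.09 in Myd88-null livers, 3.18, 3.91, 3.28 and 2.77 in double-null livers, and 3.42, 3.33, 3.96, 5.08 and 4.08 in WT livers. The groups overlap and most of these values lie under log2 4. Of the mitotic genes, Mki67 averaged 3.12 in Ager-null, 2.99 in Myd88-null, 3.09 in double-null and 3.02 in WT livers, and Top2a 2.99, 2.69, 3.08 and 2.97 in the same groups. Cdc20 averaged 3.88 in Ager-null livers, 3.39 in Myd88-null livers, 3.41 in double-null livers and 3.51 in WT livers, with differences of 0.38 for Ager-null minus WT, 0.49 for Ager-null minus Myd88-null and -0.48 for double-null minus Ager-null. Ccnb2 averaged 2.65, 2.25, 2.44 and 2.69 in the same groups, with a Myd88-null minus WT difference of -0.44. With no filter on the level, 0 of 35 members were called in any of the 7 comparisons by limma. The unadjusted limma p was 0.0163, 0.00480 and 0.00578 for those Cdc20 differences and 0.0138 for that of Ccnb2. For Ccne2 in Ager-null minus WT it was 0.00960.

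Other genes of the cycle, on lists set beside the members, gave few calls. Among 13 tested p53 targets and antiproliferative genes, 2 tested CDK inhibitors and pocket proteins, 25 tested replication genes, 7 tested mitotic genes and 17 tested E2F, cyclin and CDK genes, 0 were called in any comparison. At an unadjusted p under 0.05, the list with the highest share of its tested genes differed by comparison, and the background shares are those given above. It was the Myc-responsive growth genes in Myd88-null against WT livers (8 of 20, with p53 targets next at 5 of 13), the mitotic genes in double-null against WT livers (2 of 7) and in double-null against Myd88-null livers (3 of 7), and the replication genes in double-null against Ager-null livers (8 of 25). It was the Myc network in Ager-null against WT livers (2 of 6), in Ager-null against Myd88-null livers (2 of 6) and in the interaction (4 of 6). Each of these shares was picked as the highest among small lists, so it is no result about that list. Other lists gave none: p53 targets gave 0 of 13 in Ager-null and in double-null against WT livers, and CDK inhibitors and pocket proteins 0 of 2 in every comparison. The replication genes had a median double-null minus Ager-null difference of 0.30, against 0.04 over all genes and -0.04 over the tested members. This median belongs to a list and comparison among the shares picked above. All Ager-null arrays fall in S 13 to 20 and all double-null arrays below that range, so genotype and S number are not separated in it. Any part of the S number in this median was not tested. Cdkn1a, the p21 inhibitor induced by resection in mice, averaged 8.28 ± 0.95 in Ager-null, 7.76 ± 0.70 in Myd88-null, 7.97 ± 0.23 in double-null and 7.61 ± 0.68 in WT livers (SD, n = 6, 4, 4 and 5), and Ager-null minus WT was 0.66 ± 0.41 with an adjusted p of 0.351.

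The Myc lists held the only 2 genes called on these lists. Mxd4, which encodes a partner of Max that opposes Myc, read 5.82, 5.91, 5.98 and 6.10 in Myd88-null livers, 5.02 to 5.78 in Ager-null livers, 5.24 to 5.99 in double-null livers, and 5.07, 4.65, 5.27, 5.37 and 5.35 in WT livers. All Myd88-null livers lay above all WT livers, and Mxd4 was higher by 0.81 ± 0.17 (adjusted p = 0.0432). It was 1 of 6 tested genes of the Myc network. Nip7, a ribosome biogenesis factor among 20 tested Myc-responsive growth genes, read 8.94, 8.71, 8.34 and 8.13 in Myd88-null livers, 8.66 to 9.20 in Ager-null livers, 9.42, 9.13, 9.60 and 9.42 in double-null livers, and 9.20, 9.13, 9.43, 9.47 and 9.38 in WT livers. Nip7 was lower in every Myd88-null liver than in every double-null and WT liver: it fell by 0.79 ± 0.16 against WT (adjusted p = 0.0318), double-null minus Myd88-null was 0.86 ± 0.17 (adjusted p = 0.0464), and the interaction was 1.24 ± 0.22 (adjusted p = 0.0255). Over the 20 Myc-responsive genes the median of Myd88-null minus WT was -0.15, against 0.06 over all tested genes, while that difference was 0.85 for Myc itself. These calls were fragile. With 1 array left out in turn, Mxd4 was still called in 8 of 19 fits and Nip7 in 14 against WT, in 4 in double-null minus Myd88-null and in 15 in the interaction. Without Myd88-null 4 the differences from WT were 0.76 for Mxd4 (adjusted p = 0.137) and -0.66 for Nip7 (adjusted p = 0.125), and its part in the result was not tested. With the mean of the probe sets they were 0.26 for Mxd4 and -0.31 for Nip7, and neither passed. With the arrays centred on their medians the Mxd4 difference was 0.70 (adjusted p = 0.0762).

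Ccnf, which encodes cyclin F, a substrate receptor of a ubiquitin ligase in G2, showed the widest spread of the genes named here. It read 7.44, 6.51, 6.94, 3.004, 3.60 and 3.05 in Ager-null livers 1 to 6. Levels were 7.80, 8.11, 7.34 and 7.32 in Myd88-null livers, 3.30, 3.68, 3.51 and 3.11 in double-null livers, and 7.75, 7.63, 6.21, 5.78 and 5.86 in WT livers. All double-null livers were under log2 4, all Myd88-null and WT livers were over 5, and Ager-null livers lay on both sides. Double-null minus Myd88-null was -4.24 ± 0.85 (adjusted p = 0.0550) and double-null minus WT -3.25 ± 0.81 (adjusted p = 0.134). The fit pools the spread of all groups, and the SD was 2.08 in Ager-null livers against 0.25 in double-null livers. All double-null values lie under the limit of log2 4, so the size of these differences is not well set. Ccnf lies on chromosome 17, as do Ager, Ccnd3 and Cdkn1a, and Ccnb2 lies on chromosome 9, as does Myd88. Any part of these positions in the values was not tested.

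**Figure D4:**
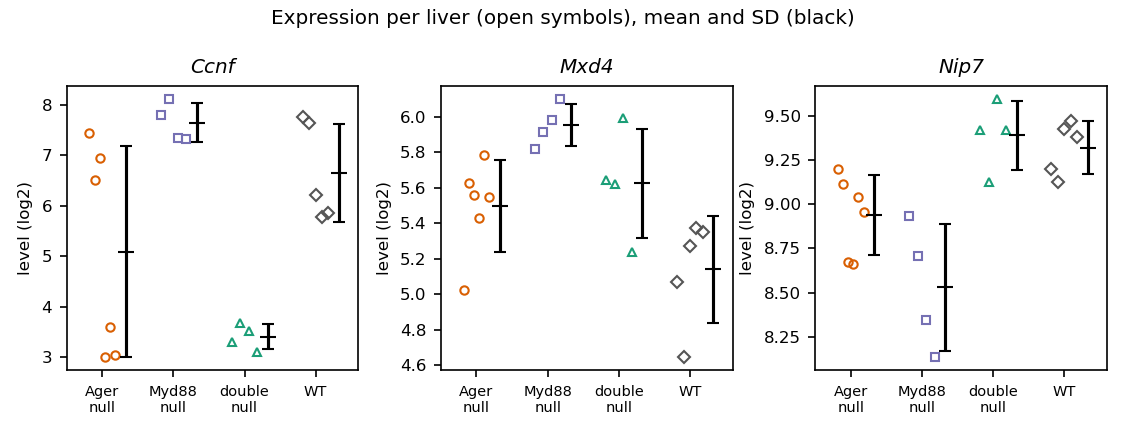
Level (log2, vertical axis) of Ccnf, Mxd4 and Nip7 in each liver, with open symbols for single livers and black bars for the group mean and SD, for Ager-null, Myd88-null, double-null and WT livers from left to right. Ccnf lies under 4 in 4 double-null and 3 Ager-null livers and over 5 elsewhere, and Mxd4 and Nip7 separate Myd88-null from WT livers without overlap.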

How the data were processed

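Values of the Affymetrix mouse arrays are on a log2 scale as the authors deposited them, and GCRMA was used to make them, per the submitters' processing notes. GCRMA corrects for background and normalizes across arrays. Dim genes can therefore be drawn towards a floor. Of 45101 probe sets, 64 controls were left out and 34945 carried 1 gene symbol. For each of 18193 genes the brightest probe set by its mean of 19 arrays was used, and 8515 genes over log2 4 on at least 4 arrays were tested. One limma fit (version 3.58.1, R 4.3.3, using lmFit then eBayes) took in the 4 title groups, two-sided, with Benjamini-Hochberg adjustment over all tested genes of a comparison and calls at an adjusted p under 0.05. The number of arrays limits the precision. Values by liver (lowest, median and highest in the 6 Ager-null livers) are given for Myc and the 2 members with the smallest p in each comparison. The script was tested on simulated data. Members, lists, motifs and naming rule were chosen with earlier results of these data known. Ccnb1, Trp53, Btg3 and Chaf1a were not analysed here. Alternatives changed the filter, scaling, probe sets, fit, blocks and arrays. Promoters came from RefSeq windows (GRCm38.p6).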

Additional observations from a re-analysis of the deposited data

Results flagged for a closer look

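Of 72 groups of livers checked over the 18 tested members, 3 held a liver far from the others of its group, and chance flags about 1 in 20. Each is a low WT liver. Cdk2 read 4.36 in WT 2, against 4.59 to 4.65 in the other WT livers. Mcm6 read 4.32 in WT 5, against 4.79 to 4.96 in the others. Rrm2 read 6.30 in WT 5, against 7.09 to 7.40 in the others. WT 5 also had the lowest Myc of the WT livers, at 7.48, and is the WT array whose S number lies in the range of the Ager-null arrays.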

How the results depend on the processing

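The count of members over log2 4 lay between 12 and 17 under the settings tried. No member was called in Ager-null against WT livers under any setting. The count of called members moved off 0 under some settings. With the mean of the probe sets, 3 of 13 tested members (Myc, Cdk6 and Rrm2) and 281 of 7361 genes were called in the interaction. A trended robust fit called 2 of 18 there (Myc and Cdk6), and 279 of 8515 genes. With only those groups in the fit, 1 of 18 (Cdk6) and 302 of 8515 genes were called in double-null against Ager-null livers. With the S range as a block, 1 of 18 (Cdk6) and 86 of 8515 genes were called in Myd88-null against WT livers. With probe sets ending in x_at or s_at left out, chosen after seeing the data, 17 members were tested. Of these, 1 was called in Ager-null against Myd88-null livers (Mcm7) and 1 in the interaction (Rrm2), where 104 and 201 of 8158 genes were called. Leaving out single arrays gave between 0 and 2 called members in Myd88-null against WT livers and in the interaction, and between 0 and 1 in double-null against WT and against Myd88-null livers. The only reversal was Cdk6 in Ager-null minus WT, at -0.042 with the S range as a block, and the cause was not tested. Over all genes the called count moved more when 1 array was left out: from 0 to 1750 in the interaction (205 with all arrays), where 1750 came without Myd88-null 1 and 0 without Myd88-null 3, Myd88-null 4 or double-null 3, from 10 to 986 in Myd88-null against WT livers (34), from 16 to 404 in Ager-null against WT livers (107) and from 2 to 445 in double-null against Myd88-null livers (13), where the highest of each again came without Myd88-null 1. Under the other settings the interaction gave 0 to 281, where the 0 came with the S range as a block, and Ager-null against WT 33 to 132. The replicate numbers did not pair the samples: among 25 pairs with the same number the median correlation of deviations was 0.05, and 3 of 19 arrays correlated best with their own number. With the replicate block 1 member was called in double-null against WT livers, Mcm7, at 1.02 (adjusted p = 0.0428), where 46 of 8515 genes were called. Mxd4 and Nip7 lost calls under several of these settings, and the calls that held are counted with their results. Genes under log2 4 are limited by background.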
